A study of Mus musculus with 6 samples.

Results

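The genes described here carry retinoids through the cell, make retinoic acid, remove it and respond to it. They are 9 of the 17606 genes measured by bulk RNA-seq in corneal keratocytes, the mesenchymal cells of the corneal stroma, which lay down its collagen. They were taken by name, with earlier results of these data known: the carrier Rbp4, the uptake receptor Stra6, the binding proteins Crabp1 and Crabp2, the retinaldehyde dehydrogenases Aldh1a1, Aldh1a2 and Aldh1a3, the retinoic acid hydroxylase Cyp26b1 and the receptor Rarb. All 9 passed the filter on low counts.

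The study compared 3 libraries of Ptch1-ablated keratocytes with 3 control libraries, to learn how Hedgehog signaling alters these cells. Mice of both groups, 10 weeks old per the labels and on the C57BL/6 background, received 3 doses of tamoxifen, and had their keratocytes sorted by flow cytometry 1 month later. Ablated animals were Prrx1-CreERT;Ptch1 in the labels and Prrx1-CreERT;Ptch1 f/f in the study's text, in which tamoxifen activates a Cre recombinase knocked into the Prrx1 locus that was to delete floxed Ptch1, the gene of the Hedgehog receptor that restrains Smo. Control animals were given only as ctrl or WT, and whether they carried Cre or floxed alleles was not given. Prrx1-CreERT also recombines in corneal endothelium, the sorting gate was not described, and whether a library was 1 animal or a pool was not given. P-values measure the spread between these libraries.

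Vitamin A travels in blood as retinol bound to the carrier encoded by Rbp4, and the membrane protein Stra6 takes it up into cells. Retinol is oxidized to retinaldehyde by alcohol and retinol dehydrogenases, and the Aldh1a enzymes oxidize retinaldehyde to retinoic acid. Crabp1 and Crabp2 bind retinoic acid in the cytoplasm, nuclear RAR and RXR receptors pass it on to target genes, and Cyp26 enzymes hydroxylate it for disposal. The cornea depends on vitamin A, and Aldh1a1 is counted among the corneal crystallins.

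Library totals ran from 20258414 to 24788039 estimated counts, so that 3 counts, the limit that a count of 0 allows, equalled 0.121 to 0.158 CPM (counts per 1000000 of the scaled library), for counting error only. The keratocyte markers Kera, Lum, Dcn and Aldh3a1 were abundant in every library, whereas Ptgds held at most 39 counts. Ptch1 itself, read over the whole gene and not over the deleted exons, held 172, 104 and 369 counts in the control libraries (replicates 1 to 3, the order used throughout) and 4348, 5194 and 6230 in the ablated libraries. The Hedgehog target Gli1 rose with it (log2 fold change 7.15 ± 0.54, SE, edgeR adjusted p 5.35e-06). On the second principal component, which held 19.9% of the variance, control replicate 1 and ablated replicate 2 lay far from the rest of their groups.

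Of the 9 genes 7 were called changed, that is, edgeR's quasi-likelihood test gave a Benjamini-Hochberg adjusted p of at most 0.05 over 13888 genes and the fold change was at least 2. Rbp4, Aldh1a2 and Cyp26b1 rose in Ptch1-ablated keratocytes, and Crabp1, Crabp2, Aldh1a1 and Rarb fell. Stra6 and Aldh1a3 did not pass. Among all genes tested 5.49% were called in either direction, 3.36% higher and 2.13% lower. CPM ranges of the groups did not overlap for 8 of the 9 genes and for 27.4% of all genes. Because of how the 9 genes were brought together, their share of calls is a description. Their median log2 fold change was -0.25, the value of Stra6, and the median of all genes was 0.00. Placing Rbp4 at its bound could not change the median of the 9 genes. Of all calls 61.2% were higher in ablated keratocytes, and 73.0% when libraries were scaled by their totals only. Each of the 7 genes was also called without control replicate 1 and ablated replicate 2.

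**Figure D1:**
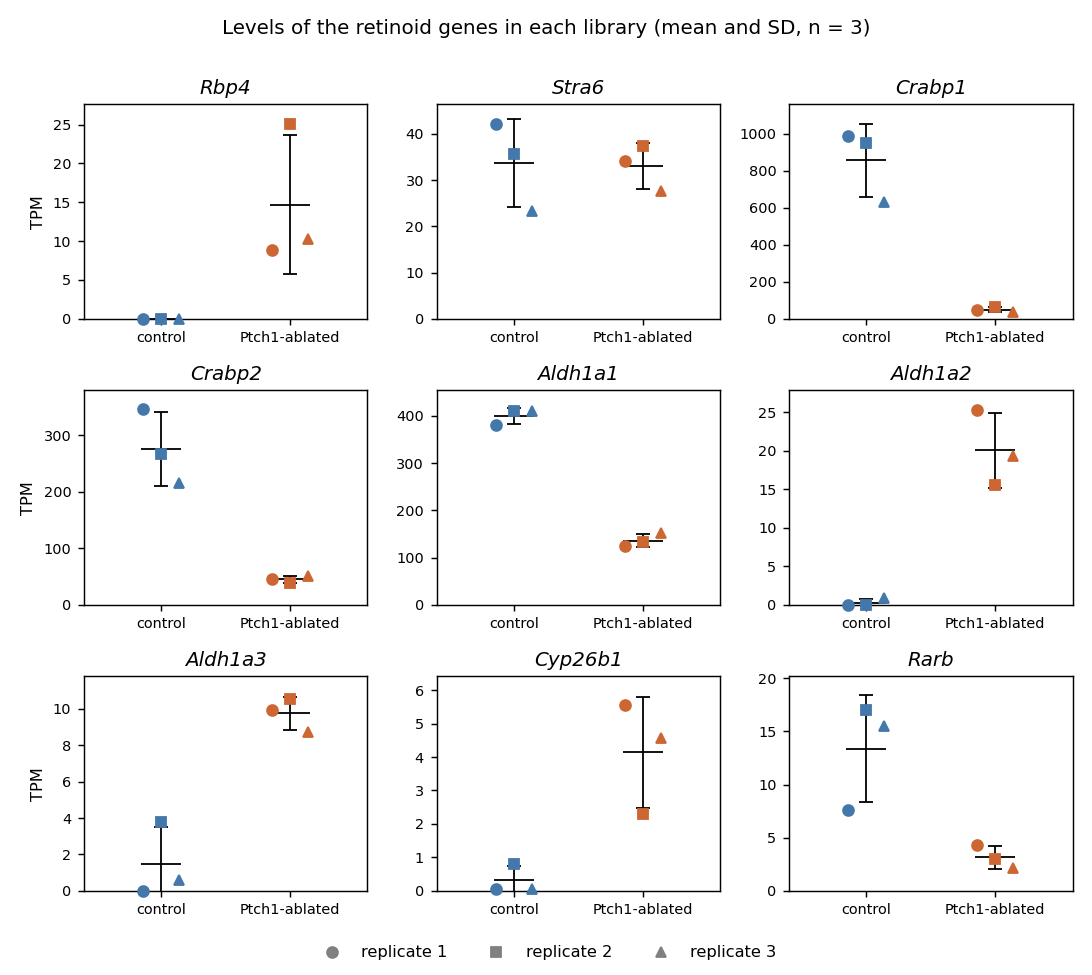
Level of each of the 9 genes in TPM (transcripts per 1000000, a level per transcript length) in control (blue) and Ptch1-ablated (orange) keratocytes. Points are single libraries with the replicate number as the shape, the wide tick is the mean and the bar the SD (n = 3). Crabp1 lay between 630 and 988 TPM in control and between 39.6 and 63.5 in ablated libraries, Rbp4 was at 0 in every control library, and only the Stra6 panel shows overlapping groups.

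Rarb, the retinoic acid receptor whose own gene is a textbook target of retinoic acid, was the member of the set whose promoter held the element known for that response. The 250 bases before its annotated start are shown for this reason, beside those of Cyp26a1, the other retinoic acid hydroxylase with a textbook element. Both are printed 5′ to 3′ in the direction of the gene, from RefSeq on GRCm38.p6, with the direct repeat in capitals. Rarb lies at chr14:16575477-16575726 on the minus strand (58.0% GC) and Cyp26a1 at chr19:37697558-37697807 on the plus strand (61.6% GC).
Rarb: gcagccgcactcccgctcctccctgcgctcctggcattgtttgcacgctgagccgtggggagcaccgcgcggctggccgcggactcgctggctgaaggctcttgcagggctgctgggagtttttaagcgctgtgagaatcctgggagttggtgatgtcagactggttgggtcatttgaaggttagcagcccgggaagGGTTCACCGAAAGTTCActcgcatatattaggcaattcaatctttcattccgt
Cyp26a1: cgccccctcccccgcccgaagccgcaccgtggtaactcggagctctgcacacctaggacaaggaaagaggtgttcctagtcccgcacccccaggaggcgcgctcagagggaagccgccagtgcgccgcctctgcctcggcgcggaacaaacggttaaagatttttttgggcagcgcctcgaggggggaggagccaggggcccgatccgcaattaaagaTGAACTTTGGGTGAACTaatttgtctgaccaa

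The search covered both strands for 4 textbook forms of the receptor half-site, AGGTCA as the usual form, AGTTCA as the first variant, GGGTCA as the second and GGTTCA as the third, alone or as direct repeats of any pair spaced by 1, 2 or 5 bases, so that every repeat also counts as half-sites. RefSeq promoters of 300 bases, 250 before the start and 50 after it, matched 7 of the 9 genes, with 12 promoters in all. Crabp2 and Aldh1a3 had no entry. The Rarb repeat, spaced by 5, ran from position -53 to -37 on the gene's strand, and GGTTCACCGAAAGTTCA was the only direct repeat in the 12 promoters. That of Cyp26a1 ran from -32 to -16 and reads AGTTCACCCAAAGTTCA on the opposite strand. Of 32851 promoters 0.0974% held a repeat spaced by 5, 0.222% one spaced by 1 and 0.268% one spaced by 2. At least 1 half-site occurred in 4 of the 12 promoters, of Rbp4, Stra6, Aldh1a1 and Rarb, against 43.7% of all promoters. The element of Rarb is a textbook one and its letters are among the forms searched, so these shares are a description and say nothing of how unusual it is. Among the other pathway genes, 38 matched 53 promoters, and repeats were found in those of Cyp26a1 and Bco1, the latter spaced by 1 at positions -56 to -44. A match is a description of letters and not a measured binding site.

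Rarb fell in Ptch1-ablated keratocytes. It held 234, 458 and 478 counts in control and 125, 80 and 67 in ablated libraries, or 7.60, 17.0 and 15.5 TPM against 4.33, 2.96 and 2.13 TPM. Every ablated library lay below every control library, and control replicate 1 was the lowest of its group. The mean fell from 18.6 ± 6.98 to 3.81 ± 1.36 CPM (SD, n = 3), a log2 fold change of -2.29 ± 0.42 (SE) with an edgeR adjusted p of 0.00495. In the annotation Rarb overlaps Top2b and an antisense transcript on the opposite strand, and the strand setting of the counting was not given, so reads of these genes may be shared. Cyp26a1 was at 0 counts in all control libraries and held 8, 0 and 11 counts in the ablated ones, too few to be tested. Bco1, named here for its promoter, was at 0 in all control libraries and held 0, 0 and 16 counts in the ablated ones, and was not tested either.

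Both binding proteins of retinoic acid fell. Crabp1 held 6195, 5218 and 4000 counts in control and 273, 345 and 253 in ablated libraries. The ablated libraries were all far below the lowest control, and the mean went from 245 ± 60.4 to 12.2 ± 2.28 CPM, a 20.1-fold fall (log2 fold change -4.33 ± 0.24, SE, edgeR adjusted p 5.09e-07). Crabp2, which hands retinoic acid to nuclear receptors, held 2547, 1720 and 1604 counts in control and 315, 244 and 386 in ablated libraries. It fell 7.05-fold, from 92.5 ± 23.4 to 13.1 ± 2.60 CPM (log2 fold change -2.82 ± 0.25, SE, adjusted p 1.94e-05). Control replicate 1 was the highest library for both genes.

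Together Crabp1 and Crabp2 gave 1333.3, 1216.3 and 846 TPM in the control libraries and 91.9, 102 and 91.2 TPM in the ablated ones. The groups did not overlap, and the exact two-sided permutation test gave p = 0.1, the smallest that 3 against 3 allows. Crabp1 made up 74.1, 78.0 and 74.5% of this sum in control and 50.4, 62.4 and 43.5% in ablated libraries. In ablated keratocytes the levels of these genes were close, at 49.8 ± 12.3 TPM for Crabp1 and 45.1 ± 6.70 TPM for Crabp2, with overlapping ranges. Their transcripts share no stretch of 50 bases.

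Among the enzymes that make retinoic acid, the abundant one fell and a scarce one rose. Aldh1a1 held 7773, 7335 and 8530 counts in control and 2413, 2399 and 3199 in ablated libraries. Both groups were tight and lay apart, at 372 ± 14.6 and 111 ± 15.2 CPM, a 3.35-fold fall (log2 fold change -1.74 ± 0.14, SE, edgeR adjusted p 1.08e-05). Aldh1a2, the enzyme that supplies most retinoic acid in the early embryo, held 0, 0 and 20 counts in control and 528, 305 and 442 in ablated libraries. It rose from 0.292 ± 0.506 to 17.8 ± 4.78 CPM (log2 fold change 5.85 ± 0.99, SE, adjusted p 0.00270). All control counts came from replicate 3. Without it the remaining controls were at 0 and the fitted log2 fold change was 11.64, a value set by the prior count of the fit.

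Aldh1a3, the third enzyme of this family, did not pass the test. It held 0, 115 and 22 counts in control and 324, 322 and 311 in ablated libraries, so that every ablated library was above every control but the control libraries were widely spread. The means were 2.34 ± 3.25 and 13.3 ± 0.71 CPM (log2 fold change 2.52 ± 1.02, SE, edgeR adjusted p 0.177). Without control replicate 2 the log2 fold change was 4.76 with an edgeR adjusted p of 0.0188, and with all libraries limma called the gene on log2(TPM + 1) (adjusted p 0.00725) and on log2(TPM + 0.1) (adjusted p 0.0376).

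The 3 dehydrogenases summed to 381, 414 and 411 TPM in control and to 159, 158 and 180 TPM in ablated libraries. The sum fell from 402 ± 18.4 to 166 ± 12.4 TPM (log2 ratio -1.28, exact two-sided permutation p = 0.1). Aldh1a1 gave 99.6 ± 0.458% of the sum in control and 81.9 ± 3.55% in ablated keratocytes, a difference of -17.7 percentage points (exact p = 0.1). Aldh1a2 gave 15.9, 9.84 and 10.8% in the ablated libraries and at most 0.214% in any control library. Aldh1a3 gave 4.86 to 6.65% in ablated and 0 to 0.91% in control libraries.

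**Figure D2:**
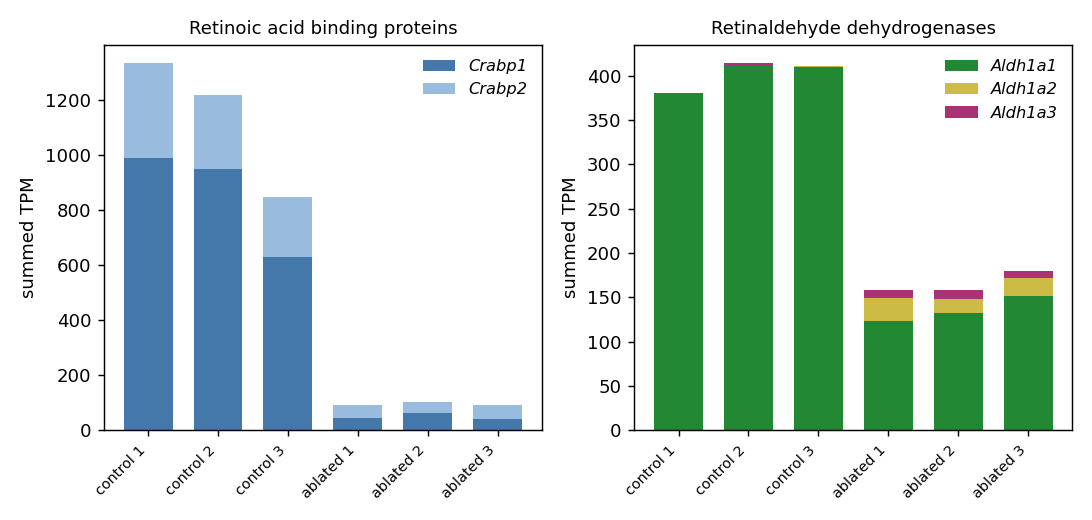
Summed TPM of the retinoic acid binding proteins (left) and of the retinaldehyde dehydrogenases (right) in each library, with each gene as a coloured part of the bar. The Crabp bars drop from 846 to 1333.3 TPM in control to 91.2 to 102 TPM in ablated libraries, and the dehydrogenase bars gain visible Aldh1a2 and Aldh1a3 parts while their height falls from 402 to 166 TPM on average.

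Aldh1a7, a close copy of Aldh1a1, held 0, 2 and 68 counts in control and 0, 1 and 2 in ablated libraries and was not tested. Its transcripts share 151 stretches of 50 bases with those of Aldh1a1, which is 6.06% of the stretches of Aldh1a1 and 7.49% of those of Aldh1a7, so reads there may be split between them. Adding its TPM to that of Aldh1a1 left the log2 ratio of the summed level at -1.28. No such stretch was shared among Aldh1a1, Aldh1a2 and Aldh1a3. On the opposite strand Aldh1a1 and Aldh1a2 each overlap a processed pseudogene, and Aldh1a1 also overlaps the processed transcript C730002L08Rik. Reads of these may be shared as well.

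Cyp26b1, which clears retinoic acid, rose from a level near the floor. It held 6, 35 and 4 counts in control and 313, 141 and 252 in ablated libraries, with every ablated library above every control. The mean went from 0.764 ± 0.934 to 9.83 ± 3.69 CPM (log2 fold change 3.70 ± 0.84, SE, edgeR adjusted p 0.0168). The call was lost without ablated replicate 1 (adjusted p 0.0971) or ablated replicate 3 (adjusted p 0.0701). Without control replicate 2 the log2 fold change was 5.42. The third enzyme of this family, Cyp26c1, held 0 counts in all control libraries and 0, 0 and 4 in the ablated ones.

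Of the genes for retinol transport, the carrier rose and the uptake receptor did not pass. Rbp4 was at 0 counts in all 3 control libraries and held 65, 167 and 80 counts in the ablated ones. Its ablated mean was 4.36 ± 2.38 CPM, at least 27.6-fold higher than the 3 counts per library that a control of 0 allows (edgeR adjusted p 0.00275). Ablated replicate 2, which stands apart from its group, was the highest. Stra6 held 1243, 921 and 711 counts in control and 953, 974 and 825 in ablated libraries. Its groups overlapped, at 45.5 ± 13.2 and 38.4 ± 4.51 CPM, with a log2 fold change of -0.25 ± 0.24 (SE, adjusted p 0.649). In the annotation Stra6 overlaps Ccdc33 on the opposite strand and Gm16131 on its own strand, so reads may be shared.

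Summed over the 9 genes, the level fell from 1581.2 ± 251 to 316 ± 12.2 TPM (SD, n = 3). The binding proteins gave 71.0% of this sum in control and 30.1% in ablated keratocytes. By mean TPM the order in control was Crabp1 (856), Aldh1a1 (400), Crabp2 (276), Stra6 (33.6) and Rarb (13.4), neighbours whose ranges did not overlap, followed by Aldh1a3 (1.46), Cyp26b1 (0.310), Aldh1a2 (0.293) and Rbp4 (0), whose neighbouring ranges did. In ablated keratocytes Aldh1a1 came first (136), then Crabp1 (49.8) and Crabp2 (45.1) with overlapping ranges, and Stra6 (33.1) below them. Aldh1a2 (20.1), Rbp4 (14.7) and Aldh1a3 (9.74) followed with overlapping neighbours, and Cyp26b1 (4.14) and Rarb (3.14), which overlapped each other, were last. The mean level of Crabp1 was above that of 99.3% of all genes in control and of 81.6% in ablated keratocytes.

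Other genes of the pathway were read from a list of 51, of which 47 were in the table and 36 were tested. Of the 36 genes 3 were called (8.33%, beside 5.49% of all genes tested), 2 higher and 1 lower. Ranges did not overlap for 12 of the 36 (33.3%, beside 27.4% of all genes tested). Both shares were near those of all genes and are a description. The median log2 fold change of the 36 genes was 0.27, and that of all genes tested 0.00. Scarb1, a lipoprotein receptor that also takes up carotenoids, rose from 44.1 ± 6.15 to 114 ± 11.2 TPM (log2 fold change 1.15 ± 0.17, SE, edgeR adjusted p 0.000976). Tgm2, a transglutaminase induced by retinoic acid, rose from 450 ± 24.7 to 1071.6 ± 152 TPM (1.04 ± 0.12, adjusted p 0.000195). Dhrs3, which reduces retinaldehyde back to retinol, fell from 105 ± 19.7 to 57.4 ± 12.9 TPM (-1.09 ± 0.21, adjusted p 0.00591). Tgm2 went below a 2-fold change without ablated replicate 1, and Dhrs3 without control replicate 2 or ablated replicate 3.

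By role, 1 of 7 tested genes for retinol carriers and storage was called, and 1 of 13 oxidoreductases. Of the receptors 0 of 5 were called, and of genes known to respond to retinoic acid 1 of 10. The remaining list, for other synthesis and clearance, held 1 tested gene, which was not called. These lists are short, and 5.49% of all genes tested were called. The list of 10 responsive genes leaves out genes filed under other roles. Among these are Rarb, Crabp2 and Dhrs3, called lower, and Cyp26b1, called higher. Of the 10 genes 8 had a log2 fold change above 0 and 2 below, counts that depend on this filing. The median of the 10 genes was 0.43, and 5 had ranges that did not overlap, beside 27.4% of all genes tested. All 5 receptors, a list also without Rarb, had values above 0. Of all genes tested 7001 of 13888 had a value above 0, so on these short lists the shared sign is a description. Rdh10, the main retinol dehydrogenase of the embryo, did not pass, at 0.59 ± 0.30 on the log2 scale (SE, adjusted p 0.298 by edgeR). Among the receptors, Rara had a log2 fold change of 0.82 ± 0.20 on the TMM-scaled counts, short of 2-fold, with an edgeR adjusted p of 0.0257. Its TPM means were 41.4 ± 5.94 and 84.9 ± 21.2, and limma on log2(TPM + 0.1) called it (1.01, adjusted p 0.0139). In 4 of the 6 fits that left out 1 library its edgeR adjusted p was between 0.0722 and 0.103. Rarg (0.17), Rxra (0.34), Rxrb (0.28) and Rxrg (0.08) did not pass, with adjusted p from 0.398 to 0.971. Rarb was the lowest of the RAR genes in ablated keratocytes, at 3.14 ± 1.11 TPM beside 172 ± 24.9 for Rarg, and in control, at 13.4 ± 5.04 TPM beside 132 ± 23.4.

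**Figure D3:**
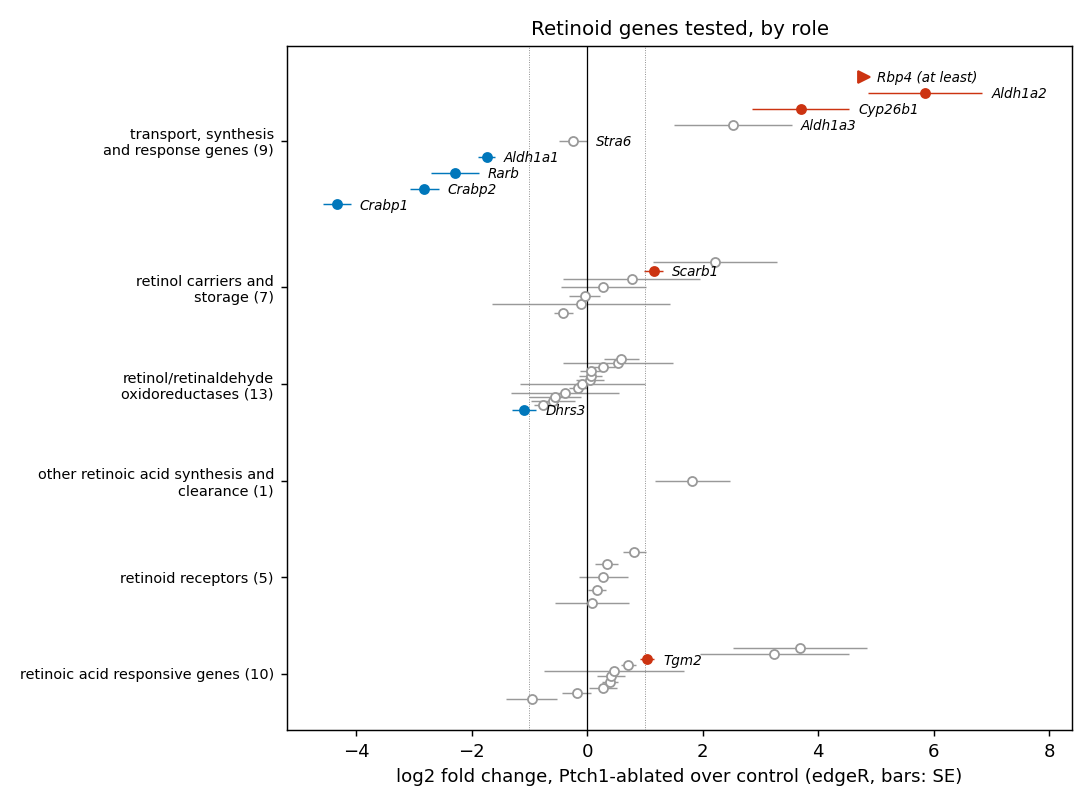
Log2 fold change (Ptch1-ablated over control, edgeR) of each retinoid gene tested, by role, with the number tested in brackets. Filled points passed the threshold (red higher, blue lower), open grey points did not, bars are SE, dotted lines mark a 2-fold change, and the triangle is the lower bound of Rbp4 (4.79). The 9 genes at the top, taken with earlier results of these data known, spread from -4.33 (Crabp1) to 5.85 (Aldh1a2). Most other pathway genes lie between the dotted lines, and because of that choice the difference in spread is a description.

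Markers of other cell types moved between the groups as well. In bulk samples fewer cells of a type and less RNA per cell cannot be told apart. Beside the genes that fell, the summed level of 9 corneal epithelium markers was 50.9 to 89.9 TPM in control and 3.78 to 9.16 TPM in ablated libraries, with 3 of 6 tested genes called lower and 1, Krt12, called higher from 0 counts in every control library. The 5 conjunctival markers summed to 33.5 to 70.5 TPM in control and 2.08 to 5.74 TPM in ablated libraries, with 2 of 3 tested called lower, and the goblet cell mucin Muc5ac held at most 1 count. Of the keratocyte markers 4 of 7 tested were called lower, and all 7 had a log2 fold change below 0, with a median of -1.06. Their sums were 119421.6 to 139834.9 TPM in control and 91808.9 to 104186.8 TPM in ablated libraries. The part of these cell types in the falls of Crabp1, Crabp2, Aldh1a1 and Rarb was not tested.

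Beside the genes that rose, 7 mural cell markers summed to 240 to 259 TPM in control and 599 to 620 TPM in ablated libraries, with 2 of 7 called higher. The 5 vascular endothelium markers summed to 233 to 318 and 369 to 386 TPM (2 called higher), with 4 of the 5 above 0 on the log2 scale. Kdr, most of this sum in control, went the other way, from 195 ± 34.7 to 171 ± 11.3 TPM (log2 fold change -0.40, edgeR adjusted p 0.112). The 5 Schwann cell markers summed to 130 to 145 and 184 to 205 TPM (1 called higher), and the 5 corneal endothelium markers to 389 to 445 and 323 to 530 TPM (1 called higher). Most of the corneal endothelium sum was Col8a2, whereas Col8a1 rose from 3.57 to 20.5 TPM on average and Slc4a11 went from 3.30 to 16.6 TPM without passing (edgeR adjusted p 0.0541), both with groups that did not overlap. Their part in the rises of Rbp4, Aldh1a2 and Cyp26b1 was not tested. Retinal pigment epithelium and adipocytes are known sources of Rbp4. The list of 7 markers of retinal pigment epithelium and retina summed to 4.28 to 7.90 and 6.72 to 8.92 TPM, with none of 3 tested called, Ttr at 0 to 4 counts and Rpe65 at 0 to 21. The 4 measured adipocyte markers summed to 0.600 to 7.94 and 1.24 to 2.44 TPM, with 1 tested and not called, and Plin1, Cidec and Lep at 0 or 1 count each. Leukocyte, melanocyte and lens lists had no called gene among 6, 3 and 1 tested, and their sums overlapped between the groups.

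**Figure D4:**
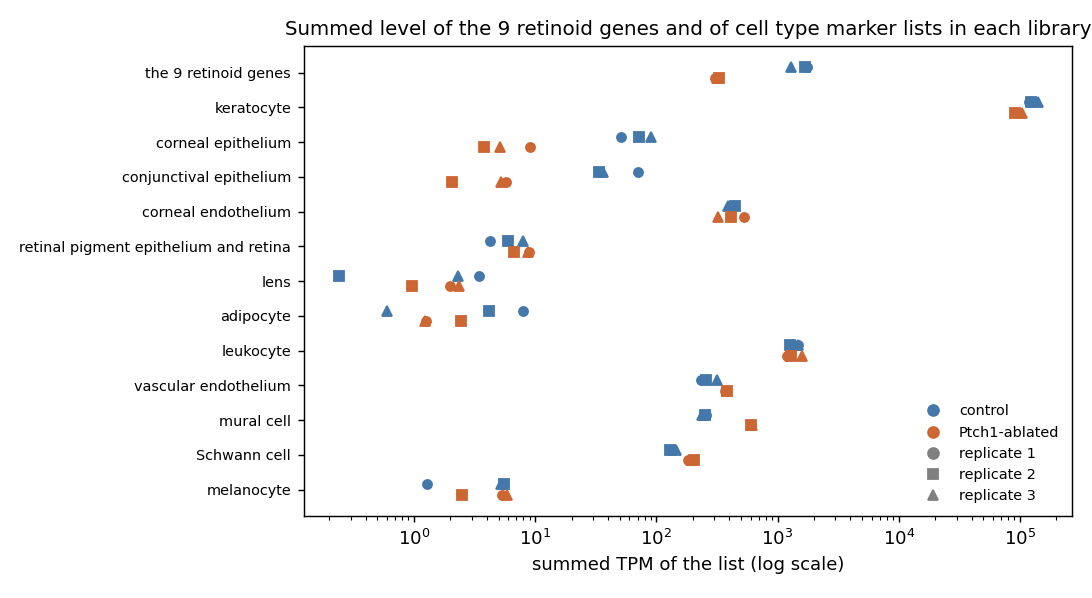
Summed TPM, on a log axis, of the 9 retinoid genes and of 12 lists of cell type markers in each library, control in blue and Ptch1-ablated in orange, with the replicate number as the shape. The retinoid sum falls from about 1581.2 to 316 TPM, and both epithelial sums also lie lower in ablated libraries. The mural sum, mostly Rgs5 and Acta2, the latter a fibroblast marker in the study, lies higher (599 to 620 against 240 to 259 TPM).

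For each called gene whose higher group averaged 100 counts or more, the genes with the most similar profile over the 6 libraries were read from the root mean square difference of centred log2(CPM + 0.5). Aldh1a1 had the closest neighbours, Mfap4 (0.0782), Tnfaip6 (0.1) and Kera (0.107). Crabp1 was nearest to Mest (0.308), Ednrb (0.397) and Mamdc2 (0.420), and Crabp2 to Cst6 (0.226), Ptgis (0.232) and Pcsk2 (0.237). For the genes that rose, Rbp4 was nearest to Gm11541 (0.176), Wnt2 (0.222) and Psca (0.275), Aldh1a2 to Acsbg1 (0.303), Alpl (0.344) and Ltbp2 (0.345), and Cyp26b1 to Scn4b (0.333), Nkd2 (0.373) and Maob (0.409). Rarb was nearest to Ankrd2 (0.211), Disp3 (0.230) and Jchain (0.234). These distances describe the 6 libraries, in which most of each profile is the difference between the groups. The 0.5 added to small CPM values shrinks differences, so near genes can differ in fitted log2 fold change. Examples are Rarb (-2.29) with Ankrd2 (-4.04) and Rbp4 (9.62) with Psca (5.04). The fitted value of Rbp4 rests on control counts of 0 and is set by the prior count of the fit. Only its bound of at least 4.79 is given by the counts.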

How the data were processed

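RNA of sorted keratocytes was measured in 6 libraries, grouped by sample title. The authors aligned reads with Bowtie2 (2.2.5) and quantified genes with RSEM (1.2.12). The submitters' processing notes name build mm9, and the annotation and strandedness were not given in the sources used here. The labels name a TruSeq kit, whereas the study's methods describe ribosomal RNA depletion and a BGISEQ platform. The deposited table holds RSEM expected counts, which are not normalized (18.6% not whole), TPM values, which the authors scaled by length and to a common sum, and FPKM values, which the authors scaled by length and library size. Group averages by the authors were not used.

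Expected counts were rounded, filtered by filterByExpr (13888 of 17606 genes) and scaled by TMM. Groups were compared with the two-sided quasi-likelihood test of edgeR 4.0.16 (R 4.3.3) with no covariates and Benjamini-Hochberg adjustment over all genes tested. The SE was taken from the F statistic and the fold change. A call needed a 2-fold change and an adjusted p no higher than 0.05. TPM, a level per length, served for comparisons between genes, and FPKM for an alternative. Within groups no 2 libraries agreed within sampling noise (smallest chi-square per degree of freedom 35). On simulated data for all 13888 genes, 142 of 200 changed genes and 4 unchanged genes were called, and 0 when no change was simulated.

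The 9 genes, the pathway and marker lists and the tests were chosen with earlier results of these data known. Pathway genes were named if called, and Rdh10, Dhrs3, Aldh1a7, Cyp26a1, Cyp26c1, Rara, Rarg, Rxra, Rxrb and Rxrg whatever their values. The result of 1 further gene that this rule names is not reported here. The 3 nearest profiles were named for each called gene of the 9. Alternatives were DESeq2 1.42.0, RLE factors, library totals only, no filter, the replicate block, limma 3.58.1 on log2(TPM + 1) and log2(TPM + 0.1), no fold minimum, and leaving out each library. Leaving out control replicate 1 and ablated replicate 2 together was added after seeing the data. Promoters were RefSeq's (GRCm38.p6). Overlapping genes and transcript sequences came from GENCODE vM21 by symbol.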

Additional observations from a re-analysis of the deposited data

How the results depend on the processing

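Between 6 and 8 of the 9 genes were called under every alternative run: 8 with either limma fit and without control replicate 2, which added Aldh1a3, and 6 without ablated replicate 1 or 3, which lost Cyp26b1. Of 135 values of the 9 genes under the alternatives 128 kept direction and side of the threshold. The setting with no fold minimum reuses the main fit, so its values among the 135 could not change sign or lose a call. Stra6 alone changed sign, to 0.01 with limma on log2(TPM + 1) and 0.01 with the pseudocount of 0.1, where the median of all genes was 0.19 and 0.22 (0.17 with library totals only), and it passed no test; the cause was not tested. The share of all calls that were higher was 73.1 and 73.4% in these limma fits. Of other pathway genes 3 were called, 5 with DESeq2, 6 with limma on log2(TPM + 1), 5 without control replicate 1 and ablated replicate 2, 6 with no fold minimum (Rara, Adh1 and Bhlhe40 added, the last 2 chosen after their values were seen), and 2 to 4 when single libraries were left out. Dhrs3 also fell short of 2-fold with library totals only (-0.92) and in both limma fits (-0.87 and -0.88). Rxrg ranged from -0.32 to 1.03 when single libraries were left out (-0.32 without control replicate 2, -0.13 without control replicate 3, -0.31 without ablated replicate 2), and Rarg was -0.04 without control replicate 1 and ablated replicate 2. The summed Aldh1a and Crabp levels and the Aldh1a1 share kept their direction under each alternative run. Same-numbered libraries did not deviate together (r = -0.0297, -0.0572 and 0.0364). No pairing by number was seen, but 3 libraries per group are too few to exclude one. With the replicate block 7 of the 9 genes and 4 pathway genes were called. Genes near 0 in control (Rbp4, Aldh1a2, Cyp26b1) rest on few control counts, which limits the precision of their fold changes.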
